A study of Mus musculus with 9 samples.

Results

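The type II hard keratins Krt81, Krt82, Krt83, Krt84, Krt85 and Krt86, together with Krt75, were followed in tongues of mice that overexpressed Bmi1 and of their controls. These 7 genes were taken by symbol, not by a rule on their values, from the 20512 genes of a deposited expression table. Earlier results of these data were known when they were chosen. The transgene group held 4 libraries from mice with both K14-rtTA and TREFLBmi-1, a doxycycline-inducible Bmi1 transgene, and the control group held 5 libraries from mice with K14-rtTA only. All mice were about 6 weeks old, on a C57/Bl6 background crossed with FVB/NJ, and all had taken doxycycline (2 mg/mL, in the water they drank) over 1 week, controls included. The keratin 14 promoter drives the activator rtTA in basal cells of stratified epithelium, whereas the RNA came from tongue tissue with its muscle. Bmi1 belongs to Polycomb repressive complex 1, which keeps target genes silent.

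Keratin filaments are built from pairs of a type I (acidic) and a type II (basic) keratin. The hard, or hair, keratins are rich in cysteine and form the cross-linked filaments of hair and nail, and on the upper surface of the tongue they are known from the filiform papillae, the keratinized spines between the taste papillae. In hair, Krt85 appears early in the matrix and precortex, Krt81, Krt83 and Krt86 in the cortex and Krt82 in the cuticle. Krt84 is best known from the filiform papillae of the tongue, and Krt75 is a keratin of the companion layer of the hair follicle and of the nail bed rather than a hair shaft keratin.

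Krt81 and Krt85 were lower in transgene tongues than in control tongues, to 0.454 and 0.472 of the control level. Krt86 and the Krt83 row stood at 0.496 and 0.499 of the control level and Krt84 at 0.583, all 3 just short of the adjusted threshold. Krt75 stood at 0.874 of the control level with an interval across no difference, and Krt82 was below the level at which genes were tested. The test was limma on the deposited log2 values with a term for group and terms for 3 strata of libraries, with Benjamini-Hochberg adjustment over the 14490 genes whose mean log2 value was at least 3. Of the 7 keratins 6 were tested and 2 were called lower at an adjusted p under 0.05, against 166 of all tested genes (1.15%), and 0 were called higher, against 0.511%. At an unadjusted p under 0.05, 5 of the 6 were lower, against 11.8% of all tested genes. The median difference of the 6 was -1.01 on the log2 scale, and the median of all tested genes was 0.00.

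**Figure D1:**
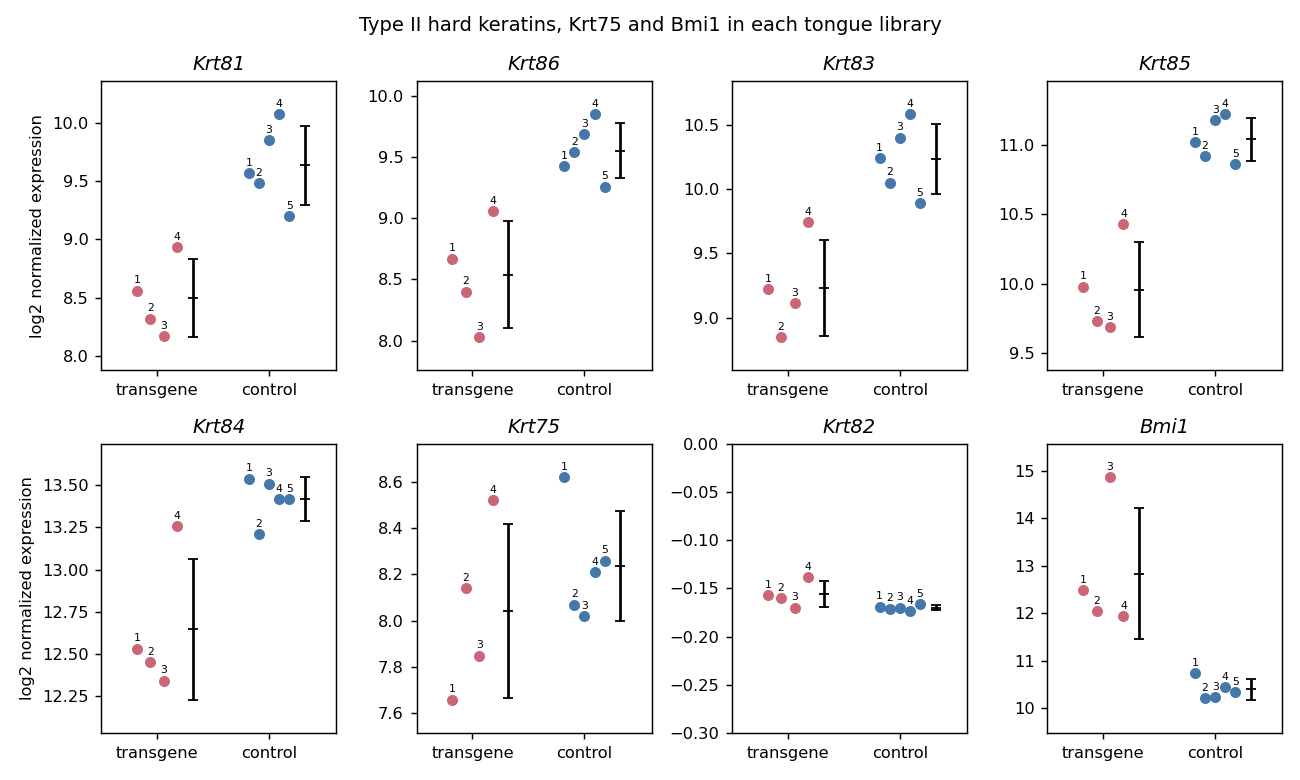
The log2 normalized expression of the 7 keratins and of Bmi1 is plotted for each library, transgene left of control, with replicate numbers; bars give the mean and SD (n = 4 transgene and 5 control), and each panel has its own range that does not start at 0. All 4 transgene libraries lie below all 5 controls for Krt81, Krt86, Krt83 and Krt85, while transgene replicate 4 reaches into the control range for Krt84 and Krt75.

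The strata come from the values themselves. The deposited values vary in only 5 of the 7 directions that 9 libraries in 2 groups allow, as though an effect of 3 sets of libraries had been removed, a step that no label names. One stratum holds transgene replicate 1 and control replicate 1, the next holds transgene replicates 2, 3 and 4 and control replicates 2 and 3, and the last holds control replicates 4 and 5 alone. A fit with group as the only term counts all 7 directions, so its p-values are too small. They are given below only to show how far the calls depend on the stratum terms. Whether every library stands for a separate mouse is not stated, so the p-values speak only of variation among these libraries, which may be technical. Bmi1 itself had log2 values of 12.49, 12.05, 14.87 and 11.94 in transgene replicates 1 to 4, against 10.74, 10.21, 10.24, 10.45 and 10.34 in control replicates 1 to 5. Every transgene library was above every control, by 2.44 on average (SE 0.60; limma adjusted p = 0.0672 with stratum terms and 0.00719 with group as the only term), and transgene replicate 3 was far above the others. Without transgene replicate 3 the difference was 1.77 (SE 0.05, limma adjusted p = 1.61e-06). RNA of tongue tissue was measured, so fewer papilla cells and less keratin RNA per cell cannot be told apart. Markers of oral keratinocytes had a mean level of 16.40 ± 0.18 (log2, SD, n = 4) in transgene tongues and 16.47 ± 0.12 (n = 5) in control tongues, and 0 of 6 passed the test in limma, at an unadjusted p under 0.05 as well; with group as the only term 1 had an unadjusted p under 0.05.

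Krt81, Krt83 and Krt86 are near copies of each other, and so is the gene of the row 5430421N21Rik, which is given beside them although it is not one of the 7. The names need care here. The transcript that the authors' deposited table pairs with the Krt83 row belongs to the gene that RefSeq now calls Krt87, and the transcript paired with 5430421N21Rik belongs to the gene now called Krt83; both rows keep their deposited names below. The coding sequences of Krt81 and Krt86 were 93.6% identical after alignment, with an identical run of 374 bases, and those of Krt81 and the Krt83 row were 89.2% identical. Krt81 and 5430421N21Rik were 93.3% identical, whereas Krt81 shared 64.4% with Krt84, 67.4% with Krt82 and 60.5% with Krt75. One stretch of 90 coding bases was the same in all 4 near copies (chromosome 15, GENCODE M21 transcripts on GRCm38, coding bases 943 to 1032 of Krt81 counted from the start codon), and it shows why a short read may have no single origin.
Krt81, Krt86, Krt83 row and 5430421N21Rik: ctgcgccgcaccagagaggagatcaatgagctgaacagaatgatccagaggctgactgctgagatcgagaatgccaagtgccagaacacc
The 90-base stretch with most differences lies further on, at coding bases 1228 to 1317 of Krt81 and of Krt86, 1243 to 1332 of the Krt83 row and 1222 to 1311 of 5430421N21Rik. It is shown because reads from such stretches can be told apart; capitals mark the 24 positions at which the 4 sequences are not all the same.
Krt81: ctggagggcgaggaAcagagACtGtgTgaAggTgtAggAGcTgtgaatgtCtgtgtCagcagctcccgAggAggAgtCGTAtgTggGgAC
Krt86: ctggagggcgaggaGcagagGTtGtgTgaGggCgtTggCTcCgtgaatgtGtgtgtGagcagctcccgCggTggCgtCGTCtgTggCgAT
Krt83 row: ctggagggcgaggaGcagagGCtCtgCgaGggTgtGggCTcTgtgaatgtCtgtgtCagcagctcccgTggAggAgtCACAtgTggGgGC
5430421N21Rik: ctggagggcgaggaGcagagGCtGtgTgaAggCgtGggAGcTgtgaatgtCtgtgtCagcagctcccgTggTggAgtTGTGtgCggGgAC

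The reads were single and 50 bases long, per the labels' protocols. Of all 50-base windows of the Krt81 transcript 43.5% also occur in another gene's transcript, most of them in Krt86 (38.0%). The share was 43.3% for Krt86, 36.9% for the Krt83 row and 23.2% for 5430421N21Rik. Krt84 and Krt82 shared 0.0% of their windows with any other gene of the transcript set searched, and Krt75 shared 2.5%, none of it with another keratin listed here. No transcript was matched to Krt85, so its windows were not compared and its share is not known. The sources used here do not give how reads that match several genes were counted, so the division of the signal among the 4 near copies is uncertain, and their differences may not be independent observations.

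**Figure D2:**
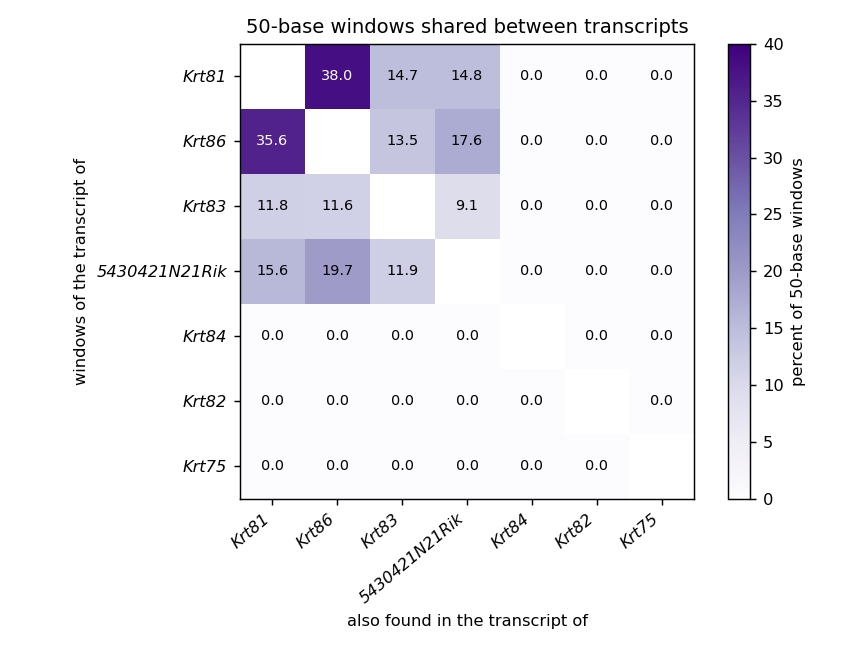
Each cell gives the percent of 50-base windows of the row's transcript that also occur in a transcript of the column's gene (GENCODE M21), for the 6 keratins with a matched transcript and 5430421N21Rik. The 4 near copies share between 9.1% and 38.0% with each other, and Krt84, Krt82 and Krt75 share 0.0% with every other gene shown.

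Krt81, a cortex keratin of hair, had log2 values of 8.56, 8.32, 8.17 and 8.93 in transgene replicates 1 to 4, against 9.57, 9.48, 9.85, 10.07 and 9.20 in control replicates 1 to 5. The groups did not overlap, with transgene replicate 4 highest among the transgene libraries and control replicate 5 lowest among the controls. Krt81 fell by 1.14 on the log2 scale (SE 0.22, 95% interval -1.63 to -0.64, limma adjusted p = 0.0436), and its difference ranked 11 from the lowest of all 14490 tested genes. The difference was -1.01 between the 2 libraries of the first stratum and -1.19 in the second. The call was lost when any one of transgene replicates 2 and 3 or control replicates 2, 3, 4 and 5 was left out, with adjusted p between 0.026 and 0.178 over the 9 omissions and differences of -1.28 to -1.01. It was also lost when a trend with transcript length was taken out (difference -1.07, adjusted p = 0.0843).

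Krt86, which shares most sequence with Krt81, had log2 values of 8.67, 8.40, 8.03 and 9.06 in transgene replicates 1 to 4, against 9.43, 9.54, 9.69, 9.85 and 9.26 in control replicates 1 to 5. Again no transgene library reached the controls, and transgene replicate 4 came closest. The difference was -1.01 (SE 0.22, 95% interval -1.50 to -0.52, limma adjusted p = 0.0542 with stratum terms and 0.00455 with group as the only term).

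The Krt83 row, a further near copy, had log2 values of 9.22, 8.85, 9.11 and 9.74 in transgene replicates 1 to 4, against 10.24, 10.05, 10.40, 10.58 and 9.89 in control replicates 1 to 5. The groups did not overlap, and transgene replicate 2, not 3, was the lowest. The difference was -1.0 (SE 0.21, 95% interval -1.48 to -0.53, limma adjusted p = 0.0509 with stratum terms and 0.00418 with group as the only term). The near copy 5430421N21Rik, outside the 7, had 7.81, 7.73, 7.57 and 8.28 in transgene replicates 1 to 4, against 8.70, 8.50, 8.79, 9.06 and 8.27 in control replicates 1 to 5. Its groups met at transgene replicate 4 and control replicate 5, and its difference was -0.82 (SE 0.20, adjusted p = 0.0687).

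Krt85, an early type II keratin of the hair matrix, had log2 values of 9.98, 9.73, 9.69 and 10.43 in transgene replicates 1 to 4, against 11.02, 10.92, 11.18, 11.22 and 10.86 in control replicates 1 to 5. The groups stood apart by more than the spread within either, since controls varied by an SD of 0.16 around 11.04 and transgene libraries by 0.34 around 9.96. Krt85 fell by 1.08 (SE 0.17, 95% interval -1.46 to -0.70, limma adjusted p = 0.0407). The difference was -1.04 in the first stratum and -1.10 in the second. Leaving out the same 6 libraries as for Krt81, one at a time, took the adjusted p over the threshold, with adjusted p between 0.00485 and 0.174 and differences of -1.24 to -0.99 over the 9 omissions.

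The 4 genes without overlap between the groups, Krt81, Krt86, the Krt83 row and Krt85, are to be read against 11.6% of all tested genes that had all 4 transgene libraries below all 5 controls. With group as the only term 5 of the 6 tested keratins were called lower, namely these 4 and Krt84, against 12.7% of all tested genes. With the length trend taken out, 0 of the 5 keratins with a length were called in limma, against 0.0554% of all tested genes, and 4 of the 5 had an unadjusted p under 0.05, against 8.23%.

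Krt84, the filiform papilla keratin, was the highest of the 7 on the deposited log2 scale. Its log2 values were 12.53, 12.45, 12.34 and 13.26 in transgene replicates 1 to 4, against 13.54, 13.21, 13.51, 13.42 and 13.42 in control replicates 1 to 5. Transgene replicates 1, 2 and 3 lay well below every control, while transgene replicate 4 lay above control replicate 2. The difference was -0.78 (SE 0.19, 95% interval -1.21 to -0.35), short of the threshold with stratum terms (limma adjusted p = 0.0694) and past it with group as the only term (0.00742). Control libraries kept within an SD of 0.13 around 13.42, and transgene libraries spread by 0.42 around 12.64. Krt84 shared no exact 50-base window with another gene in the transcripts searched, so the sharing found for the near copies was not seen for it. Reads aligned with mismatches were not assessed, and neither was sharing with Krt85.

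Krt75, the companion layer keratin, had log2 values of 7.66, 8.14, 7.85 and 8.52 in transgene replicates 1 to 4, against 8.62, 8.07, 8.02, 8.21 and 8.26 in control replicates 1 to 5. The groups overlapped widely: transgene replicate 4 stood above every control but the first, and control replicate 3 stood below transgene replicate 2. The difference was -0.19 (SE 0.20, 95% interval -0.65 to 0.26, limma adjusted p = 0.595), so a fall as large as that of Krt85 lies outside the interval, which still holds falls of up to 0.65 and rises of up to 0.26. Its sign rests on replicate 1 of each group, because the difference was -0.96 in the first stratum and 0.12 in the second, and 0.12 also without transgene replicate 1.

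Krt82, the cuticle keratin, had values between -0.170 and -0.138 in transgene tongues and between -0.174 and -0.166 in control tongues, below the floor of 3. Deposited values of such low genes are nearly equal across libraries, so they give no measure of a change, and the groups overlapped.

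**Figure D3:**
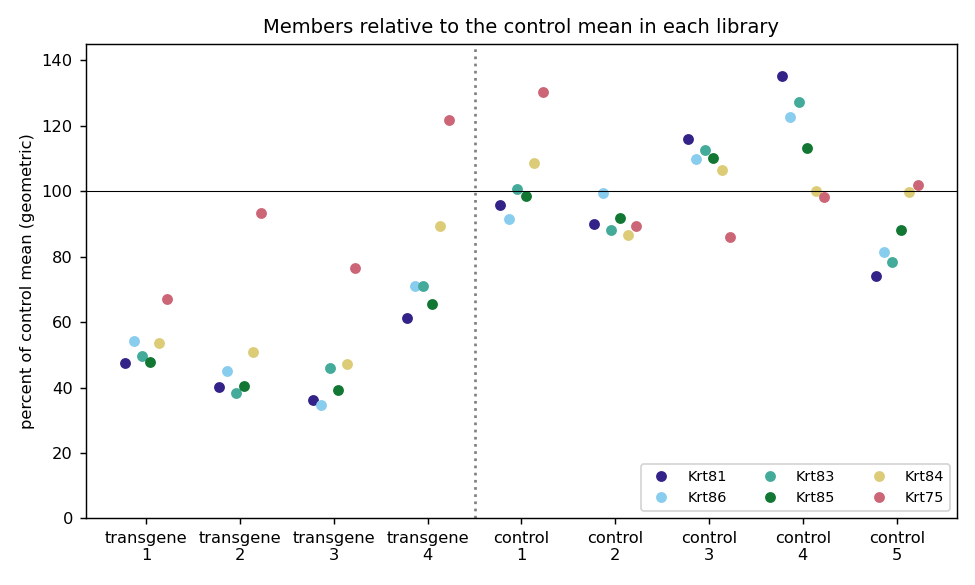
The linear level of each tested keratin is plotted for each library as percent of the geometric mean of the 5 controls (line at 100), transgene libraries left of controls. Krt81 lies between 36.3% and 61.3% in transgene libraries, Krt84 between 47.2% and 89.4% and Krt75 between 67.1% and 121.8%.

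Expressed as percent of the control mean, the libraries ranked alike for most of the genes. Transgene replicate 4 kept the most: 61.3% for Krt81, 71.0% for Krt86, 71.0% for the Krt83 row, 65.6% for Krt85 and 89.4% for Krt84. Transgene replicate 3 kept 36.3% for Krt81, 34.8% for Krt86, 46.0% for the Krt83 row, 39.3% for Krt85 and 47.2% for Krt84, the lowest transgene value except for the Krt83 row, where replicate 2 kept 38.4%. From high to low the order of the transgene libraries was 4, 1, 2, 3 for Krt81, Krt86, Krt85 and Krt84, whereas Bmi1 itself ran 3, 1, 2, 4. The 4 transgene libraries are too few for a test of that relation. Among the controls Krt81, the Krt83 row and Krt85 shared the order 4, 3, 1, 2, 5, whereas Krt84 ran 1, 3, 4, 5, 2 and Krt75 ran 1, 5, 4, 2, 3. These orders are partly fixed by the strata. Control replicates 4 and 5 lie equally far above and below the control mean in every tested gene (0.43 and -0.43 for Krt81). Transgene replicate 1 and control replicate 1 likewise lie equally far from their own group means, on opposite sides. The 9 libraries therefore do not vary freely in rank or overlap.

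After each library's group mean was taken away, the deviations of Krt81 went with those of Krt86 (Pearson r = 0.92), the Krt83 row (0.92) and Krt85 (0.91), less with Krt84 (0.64) and little with Krt75 (0.23). Krt84 went with Krt85 (0.88) and with Krt75 (0.72). These values describe 9 libraries with 5 free directions, and no p-value is attached; for Krt81, Krt86 and the Krt83 row the part of shared reads was not tested.

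Whether the keratins changed by unequal amounts was tested by taking the log2 difference of each from Krt85 within every library and permuting the group labels exactly (126 splits, smallest two-sided p 0.00794; 6 pairs, Benjamini-Hochberg adjustment over them). Most of these splits cross the strata, between which the deposited values hold no variation beyond the group means, so their p-values may be too small. Only the 20 splits within strata respect them, and there the smallest p is 0.05. Krt75 minus Krt85 was -1.91 ± 0.30 in transgene tongues (SD, n = 4) and -2.80 ± 0.31 in control tongues (SD, n = 5), a shift of 0.89 without overlap (exact p = 0.0159, adjusted p = 0.0476; 0.05 when permuted within strata, the smallest possible there). It passes only with the Krt82 pair among the 6: over the 5 pairs of tested keratins, an adjustment added after the data were seen, the exact permutation adjusted p was 0.0794, so an unequal change of Krt75 and Krt85 is not established. That shift was 0.08 in the first stratum and 1.22 in the second, and over the omissions of single libraries, which leave fewer splits, it was 0.78 to 1.02 with an exact permutation adjusted p of 0.0536 to 0.107. Krt84 minus Krt85 was 2.69 ± 0.12 in transgene tongues and 2.38 ± 0.15 in control tongues. This shift of 0.30 did not pass after adjustment (exact permutation p = 0.0397, adjusted p = 0.0794). Permuted within strata, its exact p was 0.05, the smallest possible there. The Krt84 shift was 0.03 in the first stratum and 0.42 in the second. For Krt81, Krt86 and the Krt83 row the shifts against Krt85 were -0.06, 0.07 and 0.08 (exact permutation, adjusted p = 0.603, 0.552 and 0.552), within the spread between libraries. The shift of Krt82 against Krt85, 1.10, only restates the change of Krt85, since Krt82 was below the floor and flat, and it is no test of Krt82.

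**Figure D4:**
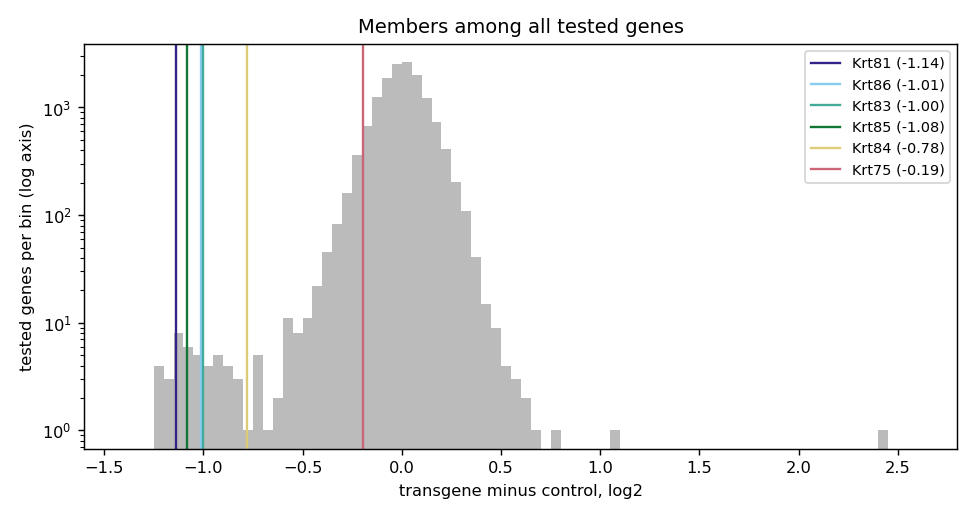
The grey histogram counts the 14490 tested genes by their difference, transgene minus control, in log2 units on the horizontal axis; the vertical axis is logarithmic, and coloured lines mark the 6 tested keratins. Krt81, Krt85, Krt86 and the Krt83 row lie at -1.14 to -1.0 in the lower tail, as does Krt84 at -0.78, and Krt75 at -0.19 lies on the lower flank of the main body.

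Levels of different genes were compared as linear normalized expression per kilobase of transcript, for the 5 tested keratins with a length and 5430421N21Rik. Krt85 had no length here and was left out, so its place in the order is not known. On the log2 scale its control mean of 11.04 lay above that of the Krt83 row, 10.23. Krt84 ran from 2017 to 3818 (median 2237) in transgene tongues and from 3694 to 4640 (median 4279) in control tongues, and made up 72.7% to 76.1% of the sum of these 6 rows in transgene tongues and 66.9% to 76.4% in control tongues. Among these 6 rows the Krt83 row followed with medians of 253 in transgene and 533 in control tongues. Krt81 had medians of 189 and Krt86 of 190 in transgene tongues, against 412 for Krt81 and 380 for Krt86 in control tongues. Krt75 was lowest, with medians of 78 in transgene and 91 in control tongues. In controls the ranges of the Krt83 row, Krt81 and Krt86 overlapped each other, so their order is not resolved, whereas Krt84 lay above and 5430421N21Rik and then Krt75 below them without overlap. In transgene tongues Krt84 still stood apart, and each of the other neighbours in the order overlapped. Shared sequence limits these comparisons between genes. The percent of 50-base windows shared with another gene was 43.5 for Krt81, 43.3 for Krt86 and 36.9 for the Krt83 row. It was 23.2 for 5430421N21Rik and 0.0 for Krt84. If reads matching several genes were dropped, the near copies would be understated and the share of Krt84 overstated. How such reads were counted is not known, and their effect on these levels was not tested.

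The authors' deposited table of 981 genes past their threshold holds the Krt83 row, Krt81 and Krt86, and not Krt84, Krt85, Krt82 or Krt75. In the authors' deposited table Krt81 has a log2 fold change of -0.53 (SE 0.14, adjusted p = 0.00443), the Krt83 row -0.49 (SE 0.14, adjusted p = 0.0116) and Krt86 -0.43 (SE 0.14, adjusted p = 0.0286). The authors' deposited table lists 552 genes as lower, 2.69% of the 20512, whether tested here or not. These fold changes are smaller in size than the differences of the deposited log2 values, -1.14 for Krt81, -1.0 for the Krt83 row and -1.01 for Krt86. The authors' deposited table of all genes gives a further fold of group means for each row. For Krt81, the Krt83 row and Krt86 it is -2.2, -2 and -2.02, minus the inverse ratio and the size of the log2 differences. For Krt85, Krt84 and Krt75, which were lower too, it is a plain ratio of 0.472, 0.583 and 0.874. The column thus does not write all lower values in the same way.

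Among the type I hard keratins, the filament partners, 5 fell as well. Of 9 genes 8 were tested (Krt40 is listed at 0 in every library), these 5 had an adjusted p under 0.05, beside 1.15% of all tested genes called lower, and the median difference was -0.86, beside 0.00 for all tested genes. Krt34 fell by 1.16 (limma adjusted p = 0.0436), Krt31 by 1.10 (0.0418), Krt33b by 0.87 (0.0427), Krt36 by 0.86 (0.0475) and Krt39 by 0.81 (0.0418). Krt33a (-0.95, adjusted p = 0.067), Krt35 (-0.74, 0.0594) and Krt32 (-0.22, 0.106) did not pass. All 8 passed with group as the only term, beside 12.7% of all tested genes. With the length trend taken out 0 passed in limma, beside 0.0554%, and 7 had an unadjusted p under 0.05, beside 8.23%. The number that passed was 3 without a filter on low values, and it ran from 0 to 7 over the omissions of single libraries.

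No call was made among the type II keratins outside the hard group. Of 13 such genes, among them the basal keratin Krt5, the mucosal keratins Krt4 and Krt76 and the stress keratins Krt6a and Krt6b, 11 were tested and 0 were called in either direction by limma, with stratum terms and with group as the only term, and 0 had an unadjusted p under 0.05. Their differences ran from -0.20 for Krt76 to 0.26 for Krt1 and Krt7, with a median of 0.01. Krt2 and Krt77 were below the floor.

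**Figure D5:**
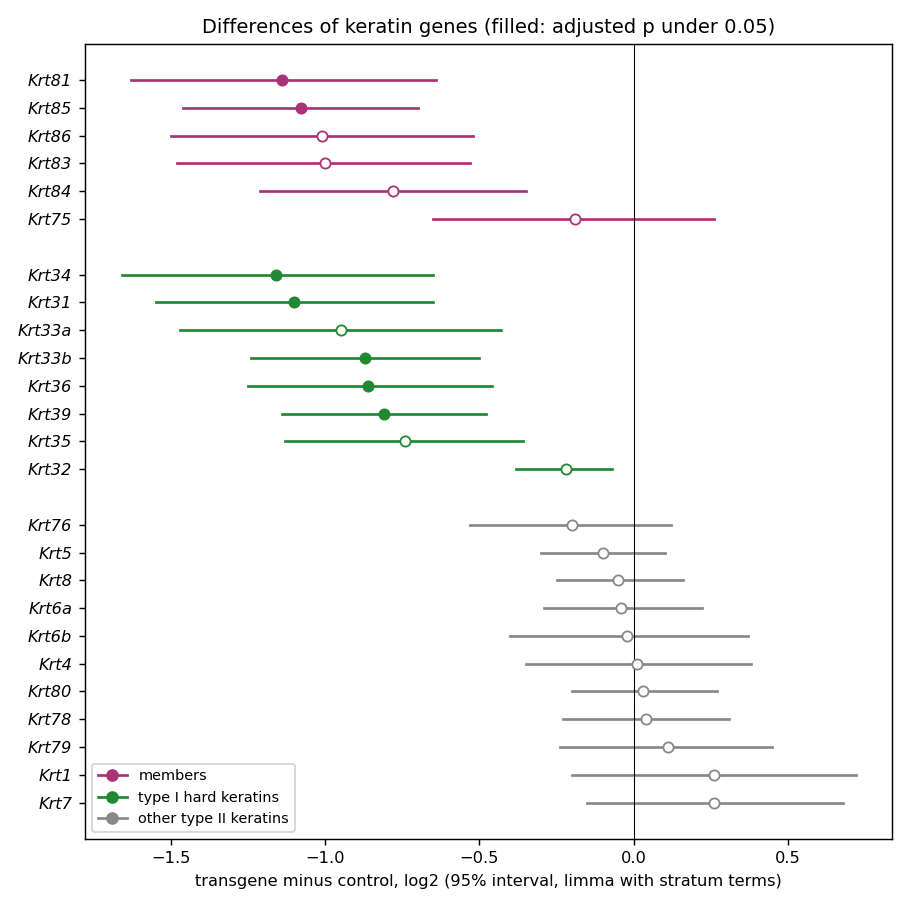
Differences between transgene and control tongues are plotted in log2 units with 95% intervals from limma with stratum terms, for the 6 tested type II keratins, 8 type I hard keratins and 11 other type II keratins; filled points have an adjusted p under 0.05. The first 5 of the 6 and 7 of the 8 type I hard keratins lie between -1.16 and -0.74, while the other type II keratins lie between -0.20 and 0.26.

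Of 10 transcription factors known from the hair shaft, 0 were called by limma with stratum terms, 5 had an unadjusted p under 0.05, all lower, beside 11.8% of all tested genes, and the median difference was -0.14. With group as the only term 3 were called lower, beside 12.7% of all tested genes. Hoxc13, a homeobox factor that binds hair keratin promoters, differed by -0.52 (adjusted p = 0.0709 with stratum terms and 0.00731 with group as the only term). Msx2, a homeobox factor of the hair matrix, differed by -0.39 (0.109 and 0.0174 by the same fits, in that order), and Lef1, the Wnt pathway factor, by -0.21 (0.193 and 0.0453). For Hoxc13 the 4 transgene libraries, 7.33 to 7.94, lay below the 5 controls, 8.17 to 8.36. The other 7 factors ran from -0.25 for Foxn1 to 0.06 for Cux1 and were not called by either fit.

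Hair follicle tissue could also carry hard keratins. Of the markers of follicle and skin, the inner root sheath keratins were low, while some epidermis and melanocyte markers were above the floor. Of 8 inner root sheath keratins, which hair follicles make and which were used here to look for skin in the sample, 7 were listed and 0 passed the floor. Krt71 and Krt26 are listed at 0 in every library, Krt72, Krt73, Krt25, Krt27 and Krt28 were below it, and Krt74 has no row under that name. The log2 of their summed level was 3.74 to 3.76 in transgene tongues and 3.73 to 3.74 in control tongues, which shows that the level was low and, at values so near the bottom of the scale, gives no comparison of the groups. Of the markers of haired epidermis, Krt2 and Krt77 were below the floor, and the summed level of the list, carried by Lor and Krt10, which tongue epithelium makes too, was 16.24 to 16.64 in transgene tongues and 16.54 to 16.81 in control tongues. Of this list 0 of 3 tested genes passed in limma, and 2 of 3, Krt10 and Lor, were lower with an unadjusted p under 0.05 and with group as the only term; their part in the keratin result was not tested. Of the melanocyte markers Pmel and Mlana were below the floor, and Dct, Tyr and Tyrp1 were above it. Tyrp1 was the highest, with a mean log2 of 6.10 in transgene and 5.98 in control tongues. The summed level of that list was 6.73 to 6.87 in transgene and 6.63 to 6.78 in control tongues. Skeletal muscle markers summed to 19.92 to 20.05 in transgene and 19.93 to 20.08 in control tongues. Of these 2 lists 0 genes passed in limma with stratum terms, where 1 of 3 tested melanocyte genes and 0 of 6 muscle genes had an unadjusted p under 0.05. With group as the only term 1 of each list was higher: Tyr, the melanin-forming enzyme, by 0.06 (limma adjusted p = 0.0215) and Myh4, a fast muscle myosin, by 0.23 (0.0424), both without overlap between the groups; their part in the keratin result was not tested.

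The genes most like Krt85 over the 9 libraries by Pearson r were Slpi (0.990), Krt36 (0.989), Hspb1 (0.988), 2310079G19Rik (0.988) and Krt31 (0.987). Slpi encodes a secreted protease inhibitor and Hspb1 a small heat shock protein, and their differences were -0.32 and -0.29, smaller in size than those of the keratins. The genes most like Krt84 were Dhrs1 (0.997), Otub2 (0.990), Thop1 (0.989), Commd7 (0.987) and Snapc2 (0.987), with differences between -0.21 and -0.12. The genes most like Krt75 were Gstm3 (0.977), Plcd1 (0.976), Emp1 (0.972), Stk24 (0.967) and Diap3 (0.965), with differences between -0.11 and -0.02. These are descriptions; the libraries share the group difference, the strata and the authors' normalization.

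The upstream sequences of Krt84, Krt82 and Krt75, 3 of the 7 genes, are shown because these neighbours in the keratin cluster of chromosome 15 lie far apart on the deposited log2 scale, with Krt84 the highest of the 7 and Krt82 below the floor. Each is the 250 bases before the start of transcription from RefSeq (GRCm38.p6, minus strand), at chr15:101532821-101533070 for Krt84, chr15:101550660-101550909 for Krt82 and chr15:101573905-101574154 for Krt75. Capitals mark matches, on either strand and with overlaps kept, to TTTAT and TTAAT, core letters bound by Hoxc13, to TATAAA, and to CTTTGAA and CTTTGTT, letters bound by Lef and Tcf factors.
Krt84: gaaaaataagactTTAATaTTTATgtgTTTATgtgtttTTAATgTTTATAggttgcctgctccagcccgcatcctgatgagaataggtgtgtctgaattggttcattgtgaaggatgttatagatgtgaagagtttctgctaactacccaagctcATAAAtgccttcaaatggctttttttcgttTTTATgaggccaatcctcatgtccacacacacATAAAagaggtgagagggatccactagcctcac
Krt82: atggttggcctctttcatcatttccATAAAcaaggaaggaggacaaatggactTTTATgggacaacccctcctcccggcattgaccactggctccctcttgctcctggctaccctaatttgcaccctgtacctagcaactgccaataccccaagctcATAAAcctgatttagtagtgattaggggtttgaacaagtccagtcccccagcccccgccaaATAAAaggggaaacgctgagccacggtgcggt
Krt75: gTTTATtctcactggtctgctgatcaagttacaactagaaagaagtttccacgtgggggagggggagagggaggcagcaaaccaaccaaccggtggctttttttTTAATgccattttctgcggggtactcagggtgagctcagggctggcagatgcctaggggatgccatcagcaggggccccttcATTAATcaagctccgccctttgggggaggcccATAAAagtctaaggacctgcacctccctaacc

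TTTAT matched 6 times in the Krt84 window, 4 times for Krt82 and 2 times for Krt75, and 37.3% of 32851 windows of that length in the same table hold it at least once. TTAAT matched 2 times for Krt84, 0 times for Krt82 and 3 times for Krt75 (24.9% of all windows). TATAAA matched 1 time, for Krt84 (12.4% of all windows), on the opposite strand 206 bases before the start and overlapping a TTTAT match. CTTTGAA and CTTTGTT matched 0 times in all 3 (4.5% and 5.0% of all windows). The letters ATAAA begin 33 bases before the start in Krt84 and 32 bases before it in Krt82 and in Krt75, and 3.3% of all windows have ATAAA beginning 35 to 25 bases before the start on the gene's own strand. ATAAA is TTTAT read on the other strand, so these positions are already among the TTTAT matches counted above. Krt84 and Krt82 share the run cccaagctcataaa, 14 bases that begin 104 and 102 bases before their starts. The position near the start and the shared run were picked after the sequences were seen, and a match is a description of letters and not of binding.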

How the data were processed

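Tongue mRNA in 4 transgene and 5 control libraries was read as single 50-base reads, per the labels' protocols. The submitters' processing notes name TopHat2, HTSeq, DESeq2 and build mm9; the sources used here give no versions, settings or normalization. The values the authors deposited are log2 normalized expression of 20512 genes, from -3.31 to 18.91, with nearly equal linear sums per library; there are no counts, so the depth is unknown and no counting interval is given. A row without a gene name and 3064 genes at exactly 0 in every library were left out. Per the file headers, the authors' table of 981 genes holds a mean normalized signal, log2 fold changes, a linear ratio, a test score and p-values.

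Genes with a mean log2 of at least 3 (14490) were fitted with limma 3.58.1 (R 4.3.3; variance trend, terms for group and for 3 strata, Benjamini-Hochberg adjustment), because the residuals held 5 of 7 directions and 1 of 3025 partitions of the libraries into 3 sets accounted for this within 1e-06. On simulated data, 3.11% of unchanged genes had an unadjusted limma p under 0.05 with stratum terms and 10.2% with group as the only term. Alternatives were group as the only term, no variance trend, floors of none and 5, a median shift, a transcript length trend removed (lengths for 99.6% of tested genes), each library left out, and single strata. A shift by oral keratinocyte markers was added after seeing the data. Coding sequences were aligned with MAFFT 7.526; protein identity was not computed, and lengths and sequences come from GRCm38, not the authors' build, and carry no coordinates over to it.

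Named genes were the 7 keratins, the 5 tested genes most correlated with Krt85, Krt84 and Krt75, called genes of the type I and transcription factor lists, and Bmi1; some list members that were not called are named too, after their values were seen. The near copy 5430421N21Rik was named after its values were seen. The genes and lists were chosen with earlier results of these data known.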

Additional observations from a re-analysis of the deposited data

How the results depend on the processing

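Krt81, Krt86, the Krt83 row, Krt85 and Krt84 were negative under every alternative with a value, with Krt81 at -1.28 to -1.01, Krt85 at -1.24 to -0.99 and Krt84 at -1.02 to -0.68, while calls near the threshold moved. Krt75 ran from -0.35 to 0.12 over single omissions and turned to 0.12 in stratum 2 alone, without transgene replicate 1 and without control replicate 1. The 2 keratins called lower became 5 with group as the only term and 0 with the length trend taken out, and 0 to 5 when single libraries were left out. All genes called lower, 166, became 1847 with group as the only term, 8 with the length trend taken out, 400 in stratum 2 alone and 0 to 952 over single omissions. All genes called higher, 74, became 1690, 8 and 333 under the same settings in that order, 37 without a filter on low values and 0 to 889 over single omissions. The 5 type I hard keratins called lower became 8 with group as the only term, 3 without a filter, 0 with the length trend taken out and 0 to 7 over single omissions, and the 0 transcription factors became 3 with group as the only term and 0 to 1 over single omissions. A shift by oral keratinocyte markers moved the median of all genes to 0.08 and left Krt81 at -1.06, Krt85 at -1.01 and Krt84 at -0.70. Against Krt85 over single omissions, Krt75 shifted by 0.78 to 1.02 (exact permutation, adjusted p 0.0536 to 0.107), Krt82 by 1.01 to 1.25 and Krt81 by -0.12 to 0.01. Adjusted over the 5 pairs of tested keratins, chosen after seeing the data, the Krt75 shift of 0.89 had an adjusted p of 0.0794 (exact permutation). In stratum 2 alone, where 10 splits cannot reach the threshold, the shifts were 1.22 for Krt75, 1.11 for Krt82, 0.42 for Krt84 and -0.02 for Krt86. In stratum 1 they were 0.08 for Krt75, 0.03 for Krt84 and 0.28 for Krt86. The length alternative was not run for these shifts, since Krt85 had no length here. The cause of these movements was not tested, though group as the only term leaves in 2 empty directions that shrink the estimated spread. No paired analysis was possible because the labels give no replicate numbers shared between the groups.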

Other observations

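Krt81, Krt86, the Krt83 row, Krt85 and Krt84 were each also set beside 1 type I hard keratin, chosen after the values were seen, and the difference of the 2 log2 values was taken in every library. Krt81 minus Krt31 stayed within -0.14 to 0.10 over all 9 libraries, with -0.01 ± 0.10 in transgene tongues (SD, n = 4) and 0.02 ± 0.06 in control tongues (SD, n = 5). Krt84 minus Krt36 stayed within -0.15 to 0.14, with 0.04 ± 0.09 in transgene tongues and -0.04 ± 0.10 in control tongues. Krt86 minus Krt34 was -0.23 ± 0.03 in transgene tongues and -0.38 ± 0.07 in control tongues, a shift of 0.14 without overlap between the groups. Krt83 minus Krt33b was 1.87 ± 0.17 in transgene tongues and 2.00 ± 0.07 in control tongues, with overlap. Krt85 minus Krt35, the pair known from the hair matrix, was 0.13 ± 0.19 in transgene tongues and 0.46 ± 0.21 in control tongues, and the ranges overlapped. Since both genes of each pair were picked for their values, these are descriptions with no test.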
